A study of Rattus norvegicus with 6 samples.

Results

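The proteins of the cytosolic ribosome were followed at the level of their messenger RNAs in cerebral arteries of Dahl rats on a high salt and a low salt diet. All platform gene symbols beginning with Rpl or Rps and a digit, with Rplp and a digit, and Rpsa were taken, and the ribosomal S6 kinases, whose symbols begin with Rps6k, were left out. This gave 44 genes of the 10411 genes that had a probe set with 1 symbol, 30 of the large and 14 of the small ribosomal subunit. They had 50 probe sets, and where a gene had several the brightest on average stood for it. A further 34 probe sets carried several symbols, at least 1 of them ribosomal. No gene was named from those, and they are given as a group.

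The ribosome joins a large subunit, which forms peptide bonds, to a small subunit, which reads the messenger RNA, and each protein is needed in about equal number per particle. In mammals most of these messages begin with a C and a run of pyrimidines, the terminal oligopyrimidine tract, through which the kinase mTOR and its partner Larp1 adjust their translation and stability together. Growing cells make more ribosomes, and muscle cells that enlarge are a known example. The messages are abundant in every cell type, including the smooth muscle, endothelium, fibroblasts and adhering brain cells of a dissected artery.

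Dahl rats were bred from stock selected for how blood pressure responds to dietary salt. From 7 weeks of age they received chow with 8% NaCl (high salt, 3 arrays) or with 0.4% NaCl (low salt, 3 arrays). Each array held RNA pooled from the middle and posterior cerebral and posterior cerebellar arteries of 3 rats, which makes 9 rats per diet. High salt rats ate their diet for 11 weeks by one label and 12 weeks by another, and low salt rats for 12 weeks. The labels give no sex, and do not say which pools were snap frozen and which were kept in a preservative. RNA went through 2 rounds of amplification before hybridisation to an Affymetrix rat array.

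Values are log2 units as deposited. A difference subtracts the low salt mean and comes with its moderated standard error (SE). The arrays kept some difference in distribution after the authors' RMA summary (background correction, equalising of arrays and summary of a probe set's probes). Array medians were 8.15 to 8.17 on high salt and 7.96 to 8.07 on low salt, and the median gene was 0.067 units higher on high salt. Low salt replicate 1 lay apart from the other arrays, at -65.9 on the leading principal component of all probe sets, against -15.0 to 28.1 for the rest. The smooth muscle markers Tagln (13.5 to 13.6 on high salt, 13.3 to 13.9 on low salt) and Myh11 (13.2 to 13.3 and 13.1 to 13.7) were bright on all arrays.

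No ribosomal protein gene passed the threshold, an adjusted p below 0.05 in limma with Benjamini-Hochberg adjustment over all 15866 probe sets. Of the 44 genes 0 were called, as were 0% of all genes, and the lowest adjusted p among them was 0.803. As deposited, 33 genes (75%, beside 60% of all genes) were higher and 11 lower on high salt, with a median difference of 0.12. Other scalings split them otherwise. Median centring left 21 genes higher (median -0.0068), quantile normalization 23 (0.012) and cyclic loess 19 (-0.028). The median over all genes moved as well, to -0.063, -0.018 and 0.0073 in the same order. The ribosomal median was thus above that of all genes after the first 2 scalings and below it after cyclic loess. Differences ran from -0.17 for Rps29 to 0.87 for Rps9, and 41 of the 44 were smaller than 2 SE. The median also moved with the arrays used. Leaving out high salt replicate 2 gave 0.055, and leaving out high salt replicate 3 gave 0.27. Leaving out low salt replicate 2 gave 0.053, and leaving out low salt replicate 3 gave 0.25. Weighting the arrays by their quality gave 0.023. In pooled tissue, fewer cells of a type and less RNA per cell cannot be told apart.

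At an unadjusted p below 0.05 stood 2 of the 44 genes, both higher, which is 4.55% beside 5.72% of all genes in that direction and 0.711% in the other. For 3 genes, Rps9, Rps3 and Rpl23, all high salt arrays lay above all low salt arrays. That is 6.82% of the group, beside 8.64% of all genes and 11.8% of genes in the same brightness range (5032 genes with a mean between 8.68 and 13.3). All high salt arrays lay below the low salt arrays for 0 ribosomal genes, 3.32% of all genes and 1.59% of those in the range. An unadjusted p below 0.05 on the high side was reached by 8.13% of those in the range. The moderated SE of a ribosomal gene had a median of 0.23.

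**Figure D1:**
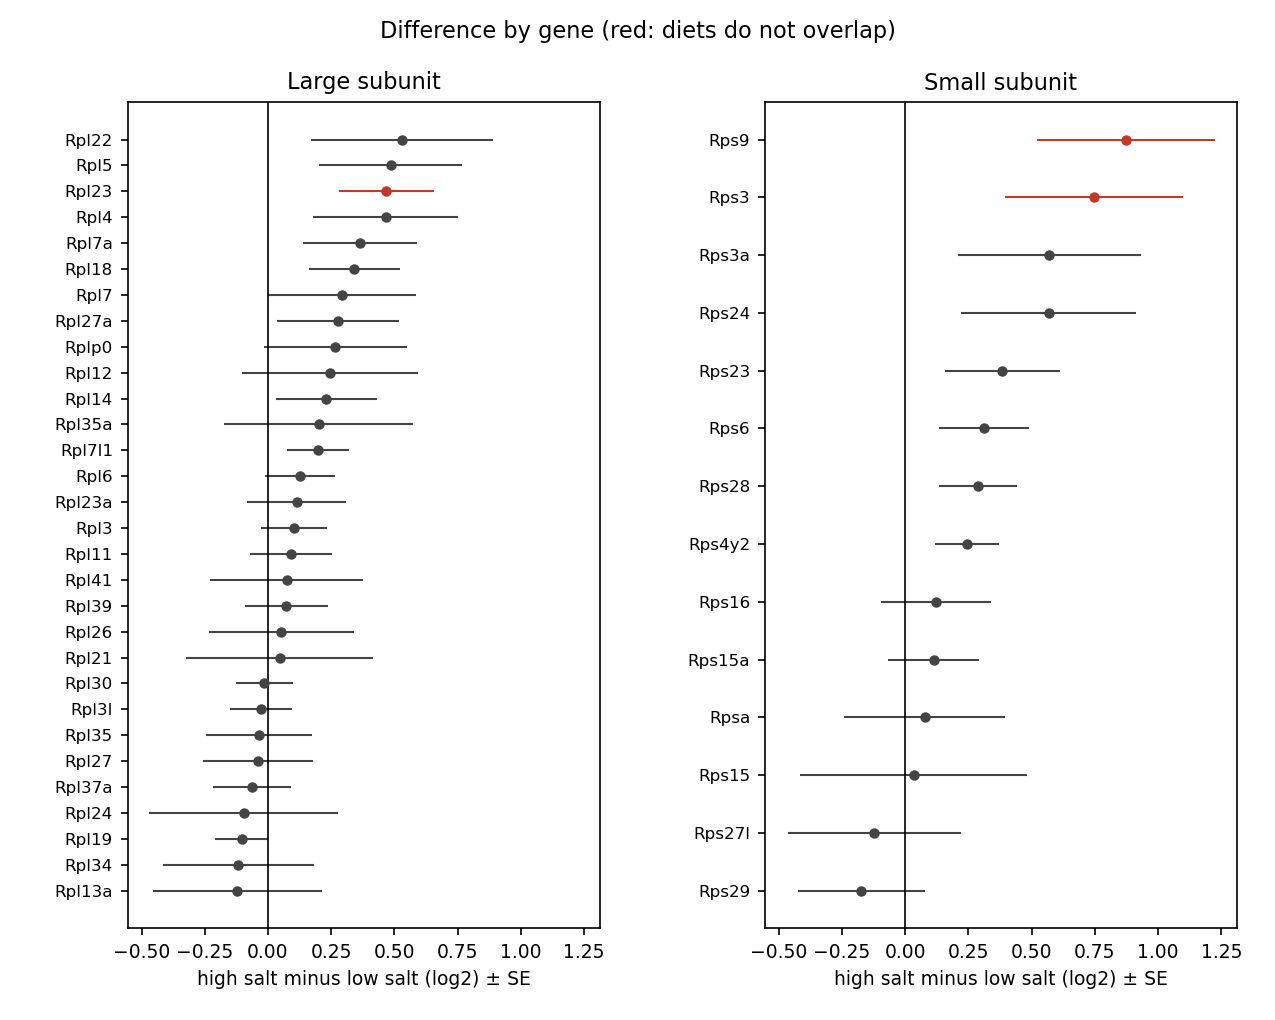
Difference between diets for each of the 44 ribosomal protein genes, high salt minus low salt (log2), with bars of 1 moderated SE on either side, large subunit on the left and small subunit on the right. Red marks the 3 genes whose diets did not overlap, Rps9, Rps3 and Rpl23. The bars of most other genes lie near or across 0.

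Bright probe sets as a whole were higher on high salt, so ribosomal genes were also read against other genes in their range of brightness. The 5032 other genes with a mean between 8.68 and 13.3, the 10th and 90th percentiles of the ribosomal means, had a median difference of 0.23, and 75.6% of them were higher. They share the range but not the level, since their median level was 9.88, against 12.6 for the ribosomal genes. The ribosomal share was 75%, and the ribosomal median lay 0.11 below theirs. Above a mean of 12.5 the median was 0.12 for 24 ribosomal genes and 0.21 for 84 others, and between 12 and 12.5 it was 0.26 for 8 ribosomal genes and 0.23 for 116 others. Between 11 and 12 it was 0.16 for 4 and 0.28 for 689. Above 12, where the median levels were 12.8 and 12.4, 78.1% of 32 ribosomal genes and 71.5% of 200 others were higher. There the gap between the medians was -0.042, while the gap between the mean differences was 0.023, of the opposite sign. With the genes between the 25th and 75th percentiles of the ribosomal means, the gap between the medians was -0.12. Over the wider range it was -0.0015 after quantile normalization. Leaving out high salt replicate 3 turned it to 0.057 and leaving out low salt replicate 1 to 0.048, so its sign depended on single arrays.

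**Figure D2:**
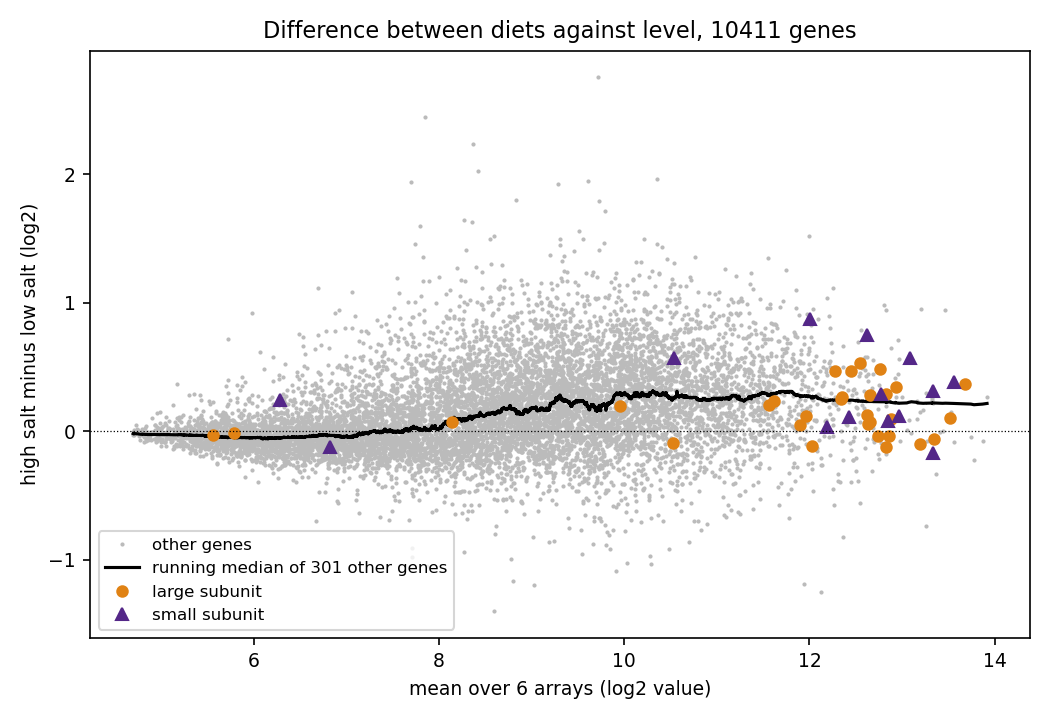
Difference between diets (high salt minus low salt, log2) against the mean over 6 arrays for 10411 genes. Grey points are other genes, the line is their running median, circles are large subunit genes and triangles small subunit genes. Most ribosomal genes sit above a mean of 11, on both sides of the line.

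The start sites of the genes are shown for the 3 genes of lowest p in each direction that had an entry in the RefSeq promoter table (build GRCr8), because the pyrimidine run there is the feature these messages share. Each window runs from 30 bases before to 20 bases after the annotated start, and capitals mark the longest run of C and T that reaches within 10 bases of it.
Rpl23, chr10:83272165-83272214, minus strand: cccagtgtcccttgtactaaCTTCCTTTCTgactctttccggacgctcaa
Rps9, chr1:74430418-74430467, minus strand: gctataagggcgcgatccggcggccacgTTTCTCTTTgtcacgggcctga
Rps3, chr1:163195757-163195806, minus strand: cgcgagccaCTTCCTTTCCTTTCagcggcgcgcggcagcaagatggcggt
Rpl19, chr10:83519034-83519083, plus strand: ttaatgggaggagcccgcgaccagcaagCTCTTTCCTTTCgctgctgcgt
Rpl37a, chr9:81748061-81748110, plus strand: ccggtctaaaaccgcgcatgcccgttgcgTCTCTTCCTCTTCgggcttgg
Rpl34, chr2:221962264-221962313, minus strand: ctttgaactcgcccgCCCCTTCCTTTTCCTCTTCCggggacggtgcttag

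Genes of both directions had such a run at or near the annotated start. An entry was found for 39 of the 44 genes, 2 of them by symbol only. A run of at least 7 C or T within 10 bases of the start stood in 28 of the 39, or 71.8%, beside 19.1% of all 33469 promoters in the table. A C exactly at the annotated start with at least 4 C or T after it stood in 11, or 28.2%, beside 2.63% of all. The runs of Rps3 and Rpl23 end before the annotated start, and true starts were not measured here. The motif CTTCCG, on either strand of the promoter entry of 300 bases, stood in 18 of the 39, or 46.2%, beside 16.6%.

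The median difference was 0.245 for the 28 genes with the run and 0.10 for the 11 without it. For a C exactly at the start the order was the opposite, 0.073 for the 11 with it and 0.22 for the 28 without. These medians were not tested.

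The small subunit holds the genes with the largest differences. Rps9, a protein that lines the entry path of the messenger RNA, had 12.43, 12.77 and 12.14 on high salt, against 10.83, 12.00 and 11.88 on low salt. The diets did not overlap, and low salt replicate 1 was more than 1 unit below any other array. The difference was 0.87 ± 0.35 (SE; 95% interval 0.0052 to 1.74), or 1.83-fold, with an unadjusted p of 0.0490 and an adjusted p of 0.803 (limma). Without low salt replicate 1 it was 0.50.

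Rps3, which sits beside Rps9 at the entry channel and has a second role in DNA repair, had 12.98, 13.22 and 12.77 on high salt, against 11.46, 12.69 and 12.58 on low salt. Again all high salt arrays were above the low salt arrays, and the low salt spread came from replicate 1. The difference was 0.75 ± 0.35 with an interval of -0.12 to 1.62, and 0.35 without low salt replicate 1. Rps3a had 13.41, 13.37 and 13.31 on high salt, against 11.96, 13.36 and 13.07 on low salt. Here low salt replicate 2 reached the high salt arrays, and the difference of 0.57 ± 0.36 was 0.15 without replicate 1.

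Rps24, a protein mutated in inherited anaemia with failing red cell production in humans, had 10.87, 11.34 and 10.26 on high salt, against 10.11, 9.90 and 10.76 on low salt. High salt replicate 3 lay inside the low salt range, and the difference was 0.57 ± 0.35. A dimmer probe set for Rps24, with a mean of 6.93, gave 0.10 ± 0.41. Rps23, which helps to hold the decoding centre accurate, had 13.84, 13.91 and 13.50 on high salt, against 12.92, 13.56 and 13.62 on low salt. The difference was 0.38 ± 0.23, and 0.16 without low salt replicate 1.

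Rps6, the substrate of the S6 kinases downstream of mTOR, had 13.48, 13.72 and 13.28 on high salt, against 12.95, 13.14 and 13.45 on low salt. The diets overlapped through low salt replicate 3, and the difference was 0.31 ± 0.18, and 0.20 without low salt replicate 1. Rps28 differed by 0.29 ± 0.15 (12.72 to 13.03 on high salt, 12.44 to 12.86 on low salt), and by 0.19 without low salt replicate 1. Rps16 (0.12 ± 0.22) and Rps15a (0.11 ± 0.18) differed by less than 1 SE. The sign for both turned after median centring.

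Rps15, whose tail reaches towards the decoding site, had 12.37, 12.42 and 11.84 on high salt, against 12.85, 11.20 and 12.48 on low salt. The low salt arrays held both the highest and the lowest value of all 6, and the difference was 0.034 ± 0.45. Leaving out low salt replicate 1 gave 0.37, and leaving out replicate 2 gave -0.45. Rps29 had 13.35, 13.47 and 12.92 on high salt, against 13.82, 13.01 and 13.44 on low salt. The difference was -0.17 ± 0.25, and 0.024 without low salt replicate 1.

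Rpsa, a small subunit protein also known as the laminin receptor precursor, had 3 probe sets whose values differed. The brightest had 13.15, 13.03 and 12.50 on high salt, against 13.10, 12.18 and 13.15 on low salt, a difference of 0.076 ± 0.32. A second had 13.05, 12.96 and 12.77 on high salt, against 11.93, 12.45 and 13.00 on low salt, a difference of 0.46 ± 0.28. The remaining probe set gave 0.0070 ± 0.26. The names of the brightest and the remaining probe set carry an _s and an _x suffix. In the fit limited to probe sets without an _a, _s or _x suffix, the second stood for the gene. The probe sets placed low salt replicate 1 differently, high in the brightest and lowest of all 6 arrays in the second, and the sign for the brightest turned after all 3 scalings.

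In the large subunit Rpl23, a protein that can bind Mdm2 and so touch the p53 pathway, had 12.56, 12.69 and 12.27 on high salt, against 11.72, 12.20 and 12.20 on low salt. The diets did not overlap, by a narrow margin between high salt replicate 3 and low salt replicates 2 and 3. The difference was 0.47 ± 0.19 (95% interval 0.0063 to 0.93), with an unadjusted p of 0.0478 and an adjusted p of 0.803 (limma). It was 0.27 after quantile normalization, 0.20 after cyclic loess normalization and 0.31 without low salt replicate 1.

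Rpl5 and Rpl11 form a particle with a small ribosomal RNA and, outside the ribosome, restrain Mdm2. Rpl5 had 13.11, 13.01 and 12.88 on high salt, against 11.88, 12.75 and 12.91 on low salt, a difference of 0.49 ± 0.28. Rpl11 had 12.83, 13.20 and 12.73 on high salt, against 12.71, 12.77 and 13.01 on low salt, a difference of 0.092 ± 0.16. The difference for Rpl5 was 0.17 without low salt replicate 1, and the sign for Rpl11 turned after all 3 scalings.

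Rpl4, which lines the exit tunnel of the growing chain, had 12.68, 12.85 and 12.51 on high salt, against 11.60, 12.40 and 12.65 on low salt. Its difference was 0.47 ± 0.29, and 0.16 without low salt replicate 1. Rpl22, which mice can do without in most tissues because a near copy replaces it, had 12.78, 13.24 and 12.40 on high salt, against 12.46, 11.61 and 12.77 on low salt. Its difference of 0.53 ± 0.36 was 0.19 without low salt replicate 2, the array on which it was lowest. For both genes the diets overlapped.

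Rpl7a had 13.75, 13.90 and 13.95 on high salt, against 13.02, 13.63 and 13.85 on low salt, a difference of 0.36 ± 0.23 that was 0.12 without low salt replicate 1. Rpl3, at the peptidyl transferase centre where peptide bonds form, had 13.54, 13.64 and 13.53 on high salt, against 13.24, 13.54 and 13.62 on low salt. Its difference was 0.10 ± 0.13, with an interval of -0.21 to 0.42. Rpl18 differed by 0.34 ± 0.18, Rpl7 by 0.29 ± 0.29, Rpl27a by 0.28 ± 0.24 and Rpl14 by 0.23 ± 0.20. Leaving out low salt replicate 1 gave -0.031 for Rpl7 and 0.024 for Rpl14, and leaving out low salt replicate 2 gave 0.11 for Rpl27a. A dim second probe set of Rpl14, with a mean of 6.61, gave -0.0089 ± 0.13.

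The stalk of the large subunit, which recruits elongation factors, was represented by Rplp0 and by Rpl12 at its base. Rplp0 had 12.46, 12.84 and 12.14 on high salt, against 12.38, 11.71 and 12.56 on low salt, a difference of 0.27 ± 0.28. Rpl12 had 12.49, 12.84 and 12.06 on high salt, against 12.43, 11.54 and 12.67 on low salt, a difference of 0.25 ± 0.35. Both genes were highest on high salt replicate 2 and lowest on low salt replicate 2. With the second of these arrays left out, Rplp0 differed by 0.015 and Rpl12 by -0.089.

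The large subunit genes on the low side were Rpl13a (-0.12 ± 0.33), Rpl34 (-0.12 ± 0.30), Rpl19 (-0.10 ± 0.10), Rpl24 (-0.096 ± 0.37), Rpl37a (-0.062 ± 0.15), Rpl27 (-0.039 ± 0.22), Rpl35 (-0.037 ± 0.21), Rpl3l and Rpl30. Rpl19 had 13.08, 13.23 and 13.13 on high salt, against 13.27, 13.12 and 13.35 on low salt. With a range of 0.28 it varied little, and its sign held in all 13 settings in which it was refitted. Among these, the replicate block and the choices of probe set could not change its difference. Rpl13a, which in human myeloid cells also leaves the ribosome to silence inflammatory messages, had 12.91, 13.11 and 12.29 on high salt, against 13.34, 12.31 and 13.03 on low salt. The interval for Rpl13a, -0.95 to 0.70, holds the differences of all other genes of the group except Rps9 and Rps3.

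The remaining large subunit genes, Rpl35a, Rpl6, Rpl23a, Rpl41, Rpl39, Rpl26 and Rpl21, had differences from 0.046 for Rpl21 to 0.20 for Rpl35a, each smaller than 1 SE. Rpl6 had the narrowest high salt group of these, 12.70, 12.68 and 12.66, against 12.45, 12.40 and 12.82 on low salt.

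Near copies of ribosomal proteins did not pass the threshold either. Rpl7l1, a relative of Rpl7, differed by 0.20 ± 0.12 and a second probe set gave 0.30 ± 0.20. Rps27l, a relative of Rps27 that p53 induces in human cells, had 6.73, 7.00 and 6.55 on high salt, against 7.50, 6.19 and 6.96 on low salt. Its difference was -0.12 ± 0.34, and 0.19 without low salt replicate 1. Rpl3l, which in striated muscle takes the place of Rpl3, lay at 5.45 to 5.65 on high salt and 5.43 to 5.75 on low salt. These values, like those of Rps4y2 (difference 0.24 ± 0.13) and Rpl30 (-0.015 ± 0.11), are under 6.60, the lower quartile of all probe sets, where a difference says little.

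Of the 44 genes, 16 kept their sign in all 13 alternative fits that gave a difference, 15 of them higher and 1 lower. The 15 were Rpl7a, Rps23, Rps6, Rps3a, Rpl18, Rps28, Rpl5, Rpl27a, Rps3, Rpl22, Rpl4, Rpl23, Rps9, Rps24 and Rps4y2, and the lower gene was Rpl19. The other 28 turned in at least 1 fit. Not every fit could turn a sign. The replicate block returns the same difference by design, and so do the choices of probe set for a gene with 1 probe set.

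Large and small subunit genes were then compared within each array, where a shift of the whole array cancels. The mean of the large subunit genes minus that of the small subunit genes was -0.06, 0.02 and 0.02 on high salt, against 0.22, 0.06 and 0.13 on low salt. It averaged -0.0046 ± 0.046 on high salt and 0.14 ± 0.083 on low salt (SD, n = 3 each), a difference of -0.14. The diets did not overlap, although high salt replicates 2 and 3 and low salt replicate 2 lay close together. The difference kept its sign in every fit tried and ran from -0.18 with low salt replicate 2 left out to -0.096 with low salt replicate 1 left out. Median centring and the replicate block could not change this quantity, so they do not count as checks of it.

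In brighter and in further probe sets the difference was of like size, but the diets overlapped. With the 40 genes above the median level of all probe sets, the same quantity was -0.51, -0.42 and -0.41 on high salt, against -0.14, -0.42 and -0.29 on low salt, a difference of -0.17. In the 33 probe sets with several symbols from 1 subunit it was -0.46, -0.46 and -0.53 on high salt, against -0.15, -0.53 and -0.40 on low salt, a difference of -0.12. By gene, the median difference was 0.11 for the large subunit, with 21 of 30 genes higher, and 0.27 for the small subunit, with 12 of 14 higher. In the probe sets with several symbols it was 0.19 for 19 of the large and 0.37 for 14 of the small subunit. Rps9, Rps3 and Rps3a, the small subunit genes with the largest differences, were all at their lowest on low salt replicate 1. Rps24, whose difference of 0.57 was about that of Rps3a, was lowest on low salt replicate 2. It differed by 0.49 without low salt replicate 1.

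**Figure D3:**
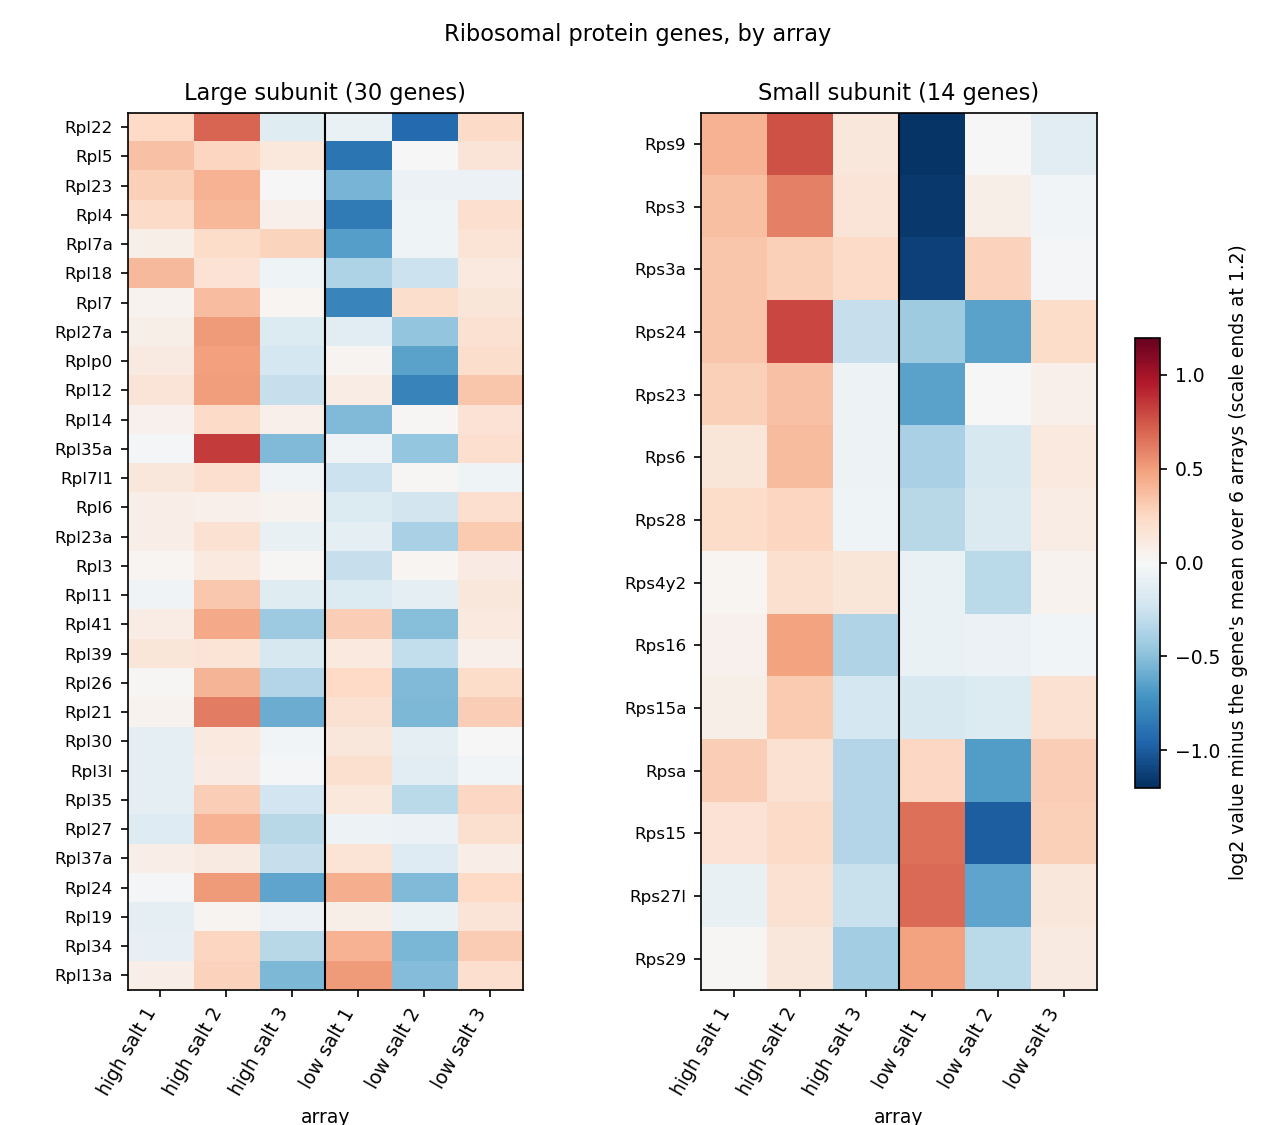
Value of each of the 44 ribosomal protein genes on each array, as log2 units above (red) or below (blue) the gene's own mean over 6 arrays. Genes run from the highest to the lowest difference between diets within each subunit, and the line separates high salt arrays on the left from low salt arrays on the right. Low salt replicates 1 and 2 are low in different genes, and high salt replicate 2 is high in 28 of the 44.

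The genes fell into sets by the array on which they were lowest. Low salt replicate 1 was the lowest array for 16 genes, among them Rps9, Rps3, Rps3a, Rpl5, Rpl4, Rpl7 and Rpl7a. Low salt replicate 2 was the lowest for 17, among them Rpl22, Rpl12, Rplp0, Rps15, Rpl41 and Rpl34, and high salt replicate 3 for 9, among them Rpl24, Rpl21, Rpl13a and Rps29. The remaining 2, Rpl19 and Rpl30, were lowest on high salt replicate 1. High salt replicate 2 was the highest array for 28 genes, or 63.6%. Among genes with a mean above 12 it was the highest for 62.5% of the 32 ribosomal genes and 21.5% of the 200 others. The order was not particular to the cytosolic ribosome. The mean of the 44 genes was highest on high salt replicate 2 (12.15) and lowest on low salt replicate 2 (11.53). For 71 mitochondrial ribosomal proteins the mean was 9.62, 9.74 and 9.45 on high salt, against 9.40, 9.32 and 9.63 on low salt, with the same arrays highest and lowest.

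At that level low salt replicate 1 was the lowest array for 43.8% of the ribosomal genes and 59% of the others, and low salt replicate 2 for 34.4% of the ribosomal genes and 13.5% of the others. These shares were not tested. The 34 probe sets with several symbols showed a like division, with 14 lowest on low salt replicate 1, 15 on low salt replicate 2 and 20 highest on high salt replicate 2. Over the 44 genes the leading principal component held 49.9% of the variance and ran from low salt replicate 2 (-2.55) and high salt replicate 3 (-1.51) to high salt replicate 2 (2.26). The next held 43.3% and set low salt replicate 1 (-3.23) apart from the others (-0.0014 to 1.18).

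The spiked-in hybridization controls, bacterial and phage RNAs added before hybridisation, varied over the arrays in a similar order. Their mean over 18 probe sets was 9.44, 10.13 and 8.91 on high salt, against 10.47, 8.78 and 9.40 on low salt. The mean of the ribosomal genes minus that of genes in the same brightness range was 1.73, 2.05 and 1.48 on high salt, against 2.01, 1.46 and 1.95 on low salt. High salt replicate 2 and low salt replicate 1 were the highest in both quantities, and high salt replicate 3 and low salt replicate 2 the lowest. Among genes with a mean above 12 the subtraction gave 0.32, 0.53 and 0.03 on high salt, against 0.46, -0.06 and 0.41 on low salt, with the same arrays highest and lowest. With the controls' mean as a covariate, the median ribosomal difference was 0.13 and 33 genes were higher. The controls' mean differed by only -0.059 between the diets, with an SD of 0.61 on high salt and 0.86 on low salt. This covariate could therefore move a difference between diets little, and the fit is no check of the array order.

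**Figure D4:**
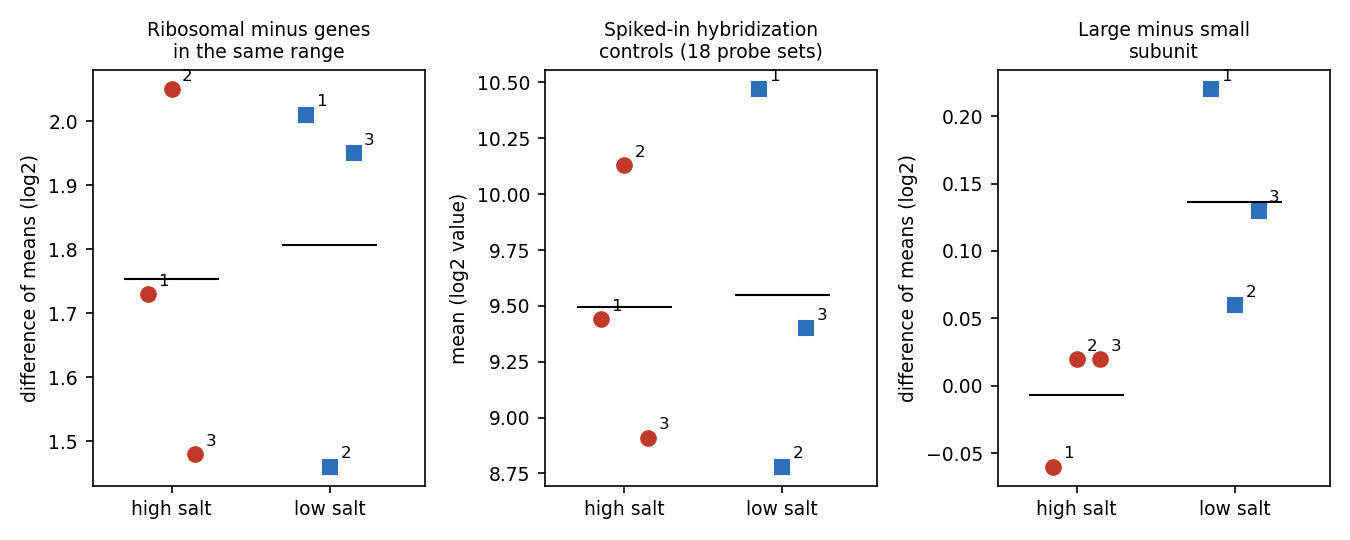
Values per array by diet, with high salt (circles) left of low salt (squares), replicate numbers beside the points and lines at the diet means. The panels show the mean of ribosomal genes minus that of genes in the same brightness range, the mean of 18 spiked-in control probe sets, and the mean of large minus small subunit genes, all in log2 units. In the last panel the diets do not overlap, and in the others they do.

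Other genes of ribosome supply were read from lists. Of 71 mitochondrial ribosomal proteins 46 were higher and 25 lower, with a median of 0.12 (-0.0069 when centred, -0.10 by quantiles). Those of lowest p were Mrps28 (0.63 ± 0.15), Mrpl46 (0.71 ± 0.19) and Mrps5 (0.41 ± 0.12), and the brightest, Mrpl17, differed by 0.020 ± 0.14. Of 37 measured genes of ribosome assembly in the nucleolus 29 were higher and 8 lower, with a median of 0.25, and 0.12, 0.072 and 0.097 after the 3 scalings. Pes1, a factor for maturing the large subunit, had 8.02, 7.72 and 7.76 on high salt, against 6.77, 6.94 and 7.45 on low salt, a difference of 0.78 ± 0.20. Nop14, a factor of the small subunit, differed by 0.51 ± 0.11, Ebna1bp2 by 0.56 ± 0.18 and the brightest, Eif6, by 0.46 ± 0.24. The shares higher in these 2 lists were 64.8% and 78.4%, beside 60% of all genes and 75.6% of those in the ribosomal brightness range. None of these lists held a gene past the threshold (0 of 71 and 0 of 37).

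Further messages with a terminal oligopyrimidine tract, mostly elongation and initiation factors, were higher for 10 of 12 measured, with a median of 0.53 (0.40, 0.36 and 0.26 after the 3 scalings, and 0.26 without low salt replicate 1). The elongation factor Eef2 had 12.20, 11.91 and 11.98 on high salt, against 11.15, 11.32 and 11.82 on low salt, a difference of 0.60 ± 0.20, while the brightest, Eef1a1, differed by -0.079 ± 0.15. Eef1b2 differed by 1.15 ± 0.42 and Eef1d by 0.61 ± 0.26. Of 18 genes of mTOR and S6 kinase control 12 were higher and 6 lower, with a median of 0.12 (-0.014 when centred). Eif4ebp2, a repressor of translation that mTOR switches off, had 9.28, 8.73 and 9.17 on high salt, against 9.71, 9.59 and 9.90 on low salt, a difference of -0.67 ± 0.18. Ddit4, an inhibitor of mTOR, differed by 0.73 ± 0.27, and Rptor, the scaffold of its growth-promoting complex, by 0.39 ± 0.17. Rheb, an activator and the brightest of the list, differed by 0.35 ± 0.30. The shares higher in these 2 lists were 83.3% and 66.7%, beside 60% of all genes. The first list had a median level of 11.7, and of the 689 other genes with a mean between 11 and 12, 78.8% were higher. In both lists 0 genes passed the threshold.

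Markers of cell types also varied over the arrays, in an order that differed between cell types. Low salt replicate 3 had the lowest mean of astrocyte markers (8.18) but a high mean of smooth muscle markers (12.02). The mean of 10 astrocyte markers, of which 9 were higher on high salt, was 9.78 to 10.2 on high salt, against 8.91, 10.1 and 8.18 on low salt. Smooth muscle markers (8 of 8 lower) averaged 11.3 to 11.5 on high salt and 11.1 to 12.0 on low salt, and macrophage or microglia markers (6 of 7 higher) 9.14 to 9.46 and 8.39 to 9.18. Red blood cell markers (3 of 3 higher) averaged 10.46 to 11.18 on high salt and 10.03 to 10.22 on low salt. For endothelial markers, 5 of 6 were higher (9.90 to 10.1 on high salt, 9.52 to 9.96 on low salt). It was 3 of 5 for oligodendrocyte markers (8.38 to 8.70 and 7.97 to 8.64) and 5 of 6 for fibroblast markers (11.5 to 12.0 and 11.5 to 11.9). Neuron markers (2 of 7 higher) averaged 6.78 to 6.89 on high salt and 6.82 to 7.05 on low salt, and the neurofilament Nefl lay at 5.64 to 5.89 on all arrays, under the lower quartile. The part of these cells in the ribosomal values was not tested. Signal near the 3 prime end minus that near the 5 prime end of Gapdh, a measure of how complete the amplified transcripts were, was 2.69, 2.62 and 1.94 on high salt, against 3.30, 2.46 and 2.44 on low salt. The same measure for beta-actin was 3.89, 3.44 and 3.31 on high salt, against 3.20, 3.16 and 3.56 on low salt. Low salt replicate 1 was the highest array for Gapdh and among the lowest for beta-actin, and the part of transcript length in the ribosomal values was not tested.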

How the data were processed

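The deposited table holds 15923 probe sets on 6 arrays. The authors' values are on a log2 scale and were made, per the submitters' processing notes, with RMA. No source used here gives a version, and base 2 was read from the range of the values. After 57 control probe sets were left out, 15866 were tested: 12783 had 1 symbol in the platform annotation, 312 several and 2771 none here. High salt was compared with low salt, 3 arrays each, with limma 3.58.1 in R 4.3.3 (lmFit, eBayes, no block) and Benjamini-Hochberg adjustment over all probe sets. An adjusted p below 0.05 was called. The number of arrays limits the precision. Pools of separate rats were the replicates. Of the 44 members, 42 were matched by Entrez identifier to RefSeq (GRCr8). The limma fit, but no other step, was tested on simulated data.

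Members and lists were chosen with earlier results of these data known, so lists have counts and medians, with no test. The named genes were the 6 members per direction of lowest p, the 5 brightest, the 3 dimmest, the 3 of widest range, near copies with their parents, stalk proteins, Rpsa and genes whose probe sets differ in sign. From each list came up to 3 genes of lowest p and the brightest. The other members, and the cell markers named with values, were added so that each member was accounted for, after their values were seen. Alternatives were 3 scalings (median centring, quantile, cyclic loess), probe set choice, array weights, a replicate block, leaving out each array, a filter at the 40th percentile, trended variance and other thresholds. Chosen after seeing the data were the spiked-in control covariate, limits to bright members and to genes with a mean above 12, and the addition of probe sets with several symbols.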

Additional observations from a re-analysis of the deposited data

How the results depend on the processing

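No alternative gave a call: 0 probe sets and 0 ribosomal genes passed an adjusted p of 0.05 in every fit. With all 6 arrays 0 also passed 0.1, which was not counted in the other fits, where adjusted p (limma) came as low as 0.0501, with low salt replicate 2 left out. With all 6 arrays 846 probe sets had an unadjusted p below 0.05. Leaving out 1 array at a time, the median ribosomal difference ran from 0.053 to 0.27. The large minus small subunit difference ran from -0.18 to -0.096, and the gap to genes in the same brightness range from -0.24 to 0.057. The count of ribosomal genes without overlap ran from 3 to 15, where fewer arrays leave less chance of overlap. It was 15 with high salt replicate 3 left out, 14 with low salt replicate 3 left out and 5 with high salt replicate 1 left out. With low salt replicate 2 left out it was 8, of which 5 were higher on high salt. After median centring of all 6 arrays that count was 1. Shares over all genes are not given for these fits, so the counts are not read as a result about ribosomal genes.

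Replicate numbers were not treated as pairs of arrays. Same-numbered arrays correlated at 0.038, -0.27 and 0.044 in their deviations from the diet means, and with the replicate number as a block 0 probe sets were called (lowest adjusted p 0.893, limma).

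Of 297 refitted differences of 23 named members, 259 kept their sign and 38, in 14 members, turned. The kept signs include fits that return the same difference by construction. These are the replicate block and, for genes with 1 probe set, the choices of probe set. The cause of the turns was not tested. After median centring the difference was -0.027 for Rpl3, -0.096 for Rps15 and -0.054 for Rpsa. After quantile normalization it was 0.0050 for Rpl3l, 0.019 for Rpl30, -0.094 for Rps15, -0.042 for Rpl7l1 and -0.034 for Rpsa. After cyclic loess normalization it was -0.16 for Rpl3, 0.012 for Rpl3l, 0.026 for Rpl30, -0.23 for Rps15, -0.031 for Rpl14, -0.025 for Rpl7l1, -0.0021 for Rplp0 and -0.19 for Rpsa. With array weights it was -0.071 for Rps15 and -0.057 for Rpsa. With 1 array left out the difference ran from -0.38 to 0.024 for Rps29, from -0.16 to 0.062 for Rpl37a, from -0.42 to 0.060 for Rpl34, from -0.41 to 0.12 for Rpl13a, from -0.47 to 0.19 for Rps27l, from -0.012 to 0.18 for Rpl3, from -0.095 to 0.063 for Rpl3l, from -0.077 to 0.047 for Rpl30, from -0.45 to 0.37 for Rps15, from -0.031 to 0.47 for Rpl7 and from -0.24 to 0.27 for Rpsa.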
